A study of Danio rerio with 4 samples.

Results

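The baseline transcriptome of adult zebrafish β-cells was read from the 2 wild-type (WT) libraries of a series of 4. Members were chosen by label alone: the columns of the deposited normalised-count table labelled as WT control at 3 months of age, here called replicate 1 and replicate 2. The labels give both libraries the genotype Tg(ins:mKO), in which the insulin promoter drives an orange fluorescent reporter in β-cells, and the study's methods name the line Tg(ins:nlsRenilla-mKO2) and give AB, WIK and TL as the wild-type strains in use. Primary islets were dissected by hand, digested with TrypLE to single cells and sorted for the reporter by FACS. By the study's methods the digestion was a shaken incubation at a temperature above that at which the fish were raised. Levels here are those after this handling, whose effect on them was not tested. The labels do not say whether the libraries came from separate fish or pools, so the spread between them may be technical. The other 2 libraries of the series were not read, and no genotype was compared with another.

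β-cells are the insulin-secreting cells of the pancreatic islet. Insulin is made as a precursor at the endoplasmic reticulum (ER), packed into dense-core granules, cut by prohormone convertases and released when glucose metabolism closes K-ATP channels and calcium enters. Neighbouring islet cells make glucagon (α-cells) or somatostatin (δ-cells), and islets sit within exocrine tissue whose acinar cells make digestive enzymes.

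Replicate 1 held 35073715 reads on 22044 listed genes and replicate 2 held 35637508. A value of the table is a normalised count, meaning reads multiplied by a factor that makes libraries comparable: 1 read was worth 0.918 in replicate 1 and 0.965 in replicate 2. Since a long transcript collects more reads than a short one, an order of levels among genes was read from length-scaled levels, the value divided by the exonic length of the gene and scaled so that each library sums to 1000000 (TPM, computed here from the normalised counts). Ranks by mean normalised count and shares of reads are also given, and these depend on length. Of the listed genes, 16529 (75%) had at least 10 normalised counts in both libraries and 191 were at 0 in both. With n = 2 of a single group there is no test here, and pairs of values are those of replicate 1 and replicate 2. The libraries stood apart in several gene sets. The hsp70 genes, the somatostatin genes and most hepatocyte markers with a mean of at least 10 were higher in replicate 1. Mitochondrial rRNA genes and most digestive enzyme genes, but not the amylase genes zgc:66313 and amy2a, were higher in replicate 2.

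The markers of β-cells were high in both libraries. The insulin gene ins (GRCz10 chr5:37254532-37257543, protein-coding, exonic length 485 bases) had 5974287 normalised counts in replicate 1 and 8439952 in replicate 2. It was the highest gene in both libraries on either scale. Its share of all reads was 18.5% in replicate 1 (exact 95% binomial interval 18.53% to 18.56%, counting error only) and 24.5% in replicate 2 (24.53% to 24.56%). The difference between the replicates, 1.41-fold in normalised counts, was far wider than either interval.

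On the length-scaled level ins reached 462235 TPM in replicate 1 and 537178 TPM in replicate 2, or 46.2% and 53.7% of the length-scaled total. As TPM sum to the same total in each library, the larger share of ins in replicate 2 lowers the TPM of other genes there. A pair of TPM therefore serves to order genes within a library and does not measure the difference between the libraries. The next gene on that scale, ppdpfb, stood at 21605 and 26057 TPM, so ins was 21.4-fold and 20.6-fold above it. The 2nd insulin gene of zebrafish, insb, had only 17.5 and 8.7 normalised counts, or 0.62 and 0.25 TPM.

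The homeobox factor pdx1 (chr24:21539015-21541532), which activates the insulin gene and maintains β-cell identity, had 82009 normalised counts in replicate 1 and 86539.5 in replicate 2. Its length-scaled level was 2755 and 2392 TPM, which ranked it the 25th gene of all. The next transcription factor of the islet list, neurod1, stood at 250 and 303 TPM. The peptide ucn3l (chr4:15982341-15982784), urocortin 3, which marks mature β-cells, had 5899 and 9440.1 normalised counts and a length-scaled level of 499 and 656 TPM. In replicate 2 both ins and ucn3l were higher, while pdx1 was within 1.06-fold.

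The reads were concentrated on few genes. In replicate 1, 96 genes held 50% of all reads, and in replicate 2 it took 58. To reach 90%, 3697 and 3488 genes were needed. The 10 highest genes of each library took 34.3% of its reads in replicate 1 and 40.1% in replicate 2. A mean of at least 10000 normalised counts was found in 340 genes and at least 1000 in 3562.

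After ins, the most abundant RNA by reads was malat1, a long noncoding RNA retained in the nucleus (chr14:46643944-46651420, exonic length 7477 bases). It took 6.63% of reads in replicate 1 and 5.18% in replicate 2. It ranked 4th per length, at 10719 and 7353 TPM. The mitochondrial rRNA gene AC024175.4 took 1.72% and 4.01% of reads, a 2.49-fold higher normalised count in replicate 2.

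The gene ppdpfb, a homolog of pancreatic progenitor cell differentiation and proliferation factor, took 1.85% of reads in replicate 1 and 2.54% in replicate 2. Secretogranin III, scg3, a granule protein that binds granins to the granule membrane, took 1.21% and 1.1%. The heat shock gene hsp70.1 was 6th by mean with 1.66% in replicate 1 but 0.08% in replicate 2, so its rank rested on replicate 1. The mitochondrial gene mt-co1, a catalytic subunit of cytochrome c oxidase, took 0.77% and 0.74%.

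Further down the 25 highest by mean stood the granule genes cpe and scg5, the elongation factor eef1a1l1, the protease inhibitor cst3, the adenine nucleotide carrier slc25a5, the sialomucin cd164 and rgs5a, a regulator of G protein signalling. The G protein regulator rgs5a had 97412 normalised counts in replicate 1 and 101800.0 in replicate 2. The gene zgc:158463, which the files annotate as protein-coding without a named function, had 138762 and 228664. The genes scg5, slc25a5 and rgs5a were within 1.05-fold between the libraries, against 1.65-fold for zgc:158463 and 1.86-fold for cd164.

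**Figure D1:**
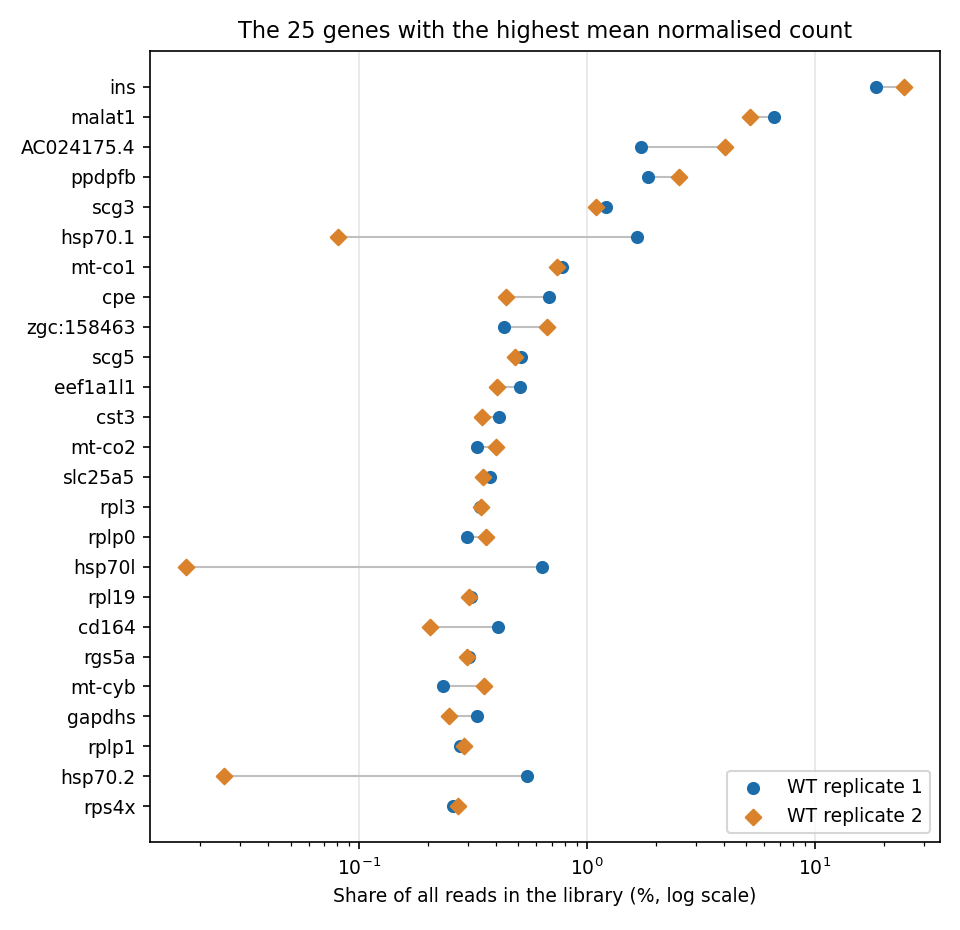
Share of all reads in the library (%, log axis) for the 25 genes with the highest mean normalised count; circles are WT replicate 1, diamonds WT replicate 2, and a grey line joins the values of a gene. The gene ins lies at 18.5% and 24.5%, and the 3 heat shock genes are the points drawn furthest apart.

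Ranking per length exchanged 9 of these 25 genes, 16 being on both lists. The genes that came in had exonic lengths of 412 to 1117 bases: the ribosomal protein genes RPL41, RPL37A, rpl32, rps27.1, rps20 and rplp2, the cytochrome c oxidase gene mt-co3, the processed transcript si:dkey-238c7.12 and pdx1. RPL41, with an exonic length of 461 bases, was 5th per length at 5984 TPM in replicate 1 and 6076 TPM in replicate 2. The long cpe, 6373 bases, went the other way, standing 8th by mean and 72nd per length. The 100 highest genes by mean had a median exonic length of 1609.5 bases, against 2249 bases for all listed genes.

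Among those 100 genes, 39 encoded cytosolic ribosomal proteins, 6 were mitochondrially encoded and 5 belonged to hormone processing and granule cargo. The 100 highest genes of each library had 82 genes in common. Per length, 51 of the 100 highest genes were cytosolic ribosomal protein genes.

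Genes were also put into 18 classes without overlap, which together held 49.5% of the reads in replicate 1 and 53.5% in replicate 2. Insulin was the leading class, followed by cytosolic ribosomal proteins with 8.22% in replicate 1 and 8.92% in replicate 2 over 101 genes. Hormone processing and granule cargo, 25 genes, took 3.14% and 2.70%. Translation factors took 2.17% and 2.06%, and nuclear-encoded respiratory chain and ATP synthase genes took 1.37% and 1.3%. Of the 18 class shares, 14 differed by 1.02-fold to 1.32-fold between the libraries. The others were chaperones and heat shock (3.97% and 0.61%), mitochondrially encoded genes (3.53% and 6.23%), peptide hormones other than insulin (0.49% and 0.23%) and immediate early genes (0.36% and 0.23%).

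**Figure D2:**
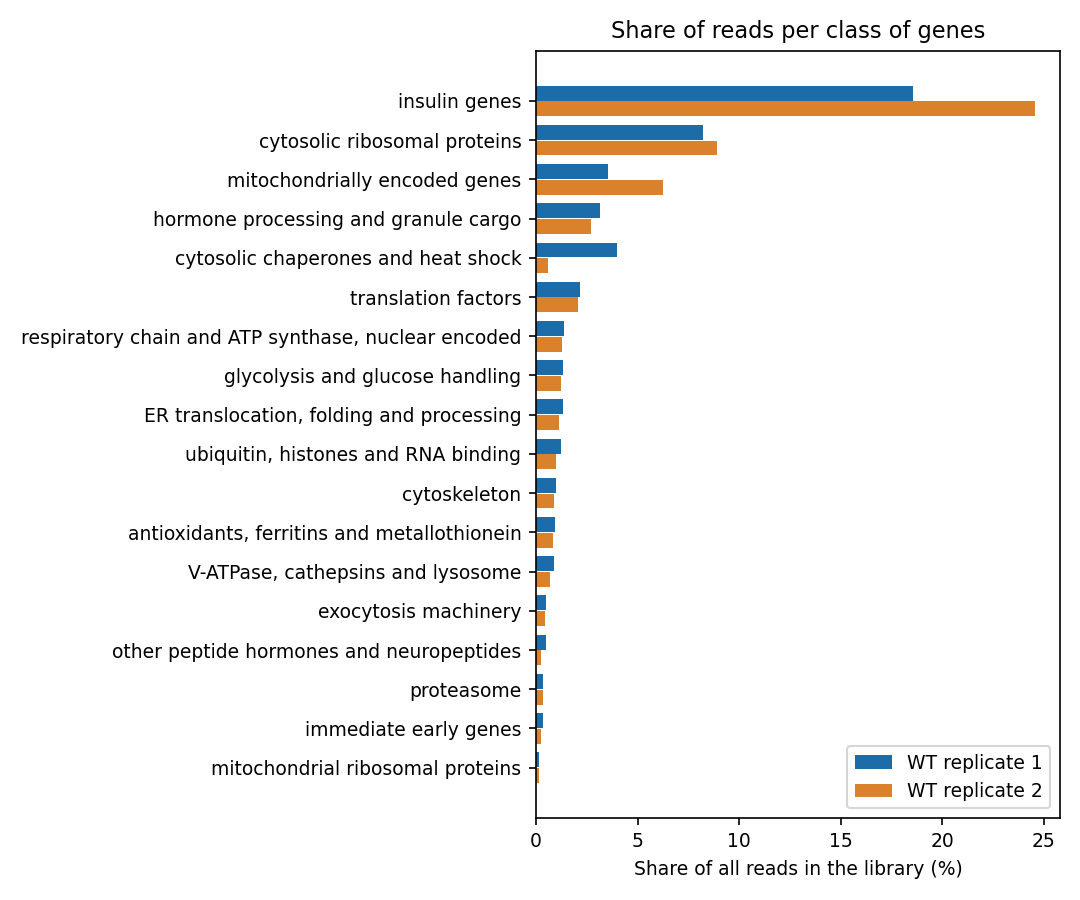
Share of all reads in the library (%, linear axis from 0) for each of 18 classes of genes; blue bars are WT replicate 1 and orange bars WT replicate 2. Insulin genes lead with 18.5% and 24.5%, and chaperones and heat shock show the widest ratio, 3.97% against 0.61%.

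The machinery that turns proinsulin into insulin was abundant in both libraries and within 2-fold between them. Of the 33 symbols on the hormone processing and granule cargo list, 25 were matched, 24 had a mean of at least 10 normalised counts, and all 24 of those were within 2-fold between the libraries. Over all 17789 genes with such a mean, 16.2% differed by more than 2-fold, 8.12% being higher in replicate 1 and 8.11% higher in replicate 2. That share depended on abundance and was 3.0% at means of 1000 to 3000. On the granule list 17 genes had a mean of at least 1000, where closeness was usual among all genes. Over all genes with a mean of at least 10000 the median size of the log2 ratio was 0.23. The log2 ratios of replicate 1 over replicate 2 for cpe (0.54), pcsk2 (0.39) and pam (-0.38) were larger in size than that. For pcsk1 (-0.10) the ratio was smaller.

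The convertase pcsk1, which makes the initial cut in proinsulin, had 79522 normalised counts in replicate 1 and 85448 in replicate 2. The convertase pcsk2 had 15239 and 11639.8. Per length pcsk1 was above pcsk2 in each library, at 1186 and 1048 TPM against 247 and 155 TPM. The carboxypeptidase cpe, which trims the cut ends, reached 1294 TPM in replicate 1 and 731 TPM in replicate 2.

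Of the granins, the chaperone of pcsk2 scg5 (the chr19 gene) was the steadiest, with 165816 normalised counts in replicate 1 and 166105 in replicate 2. A further gene with the symbol scg5, on chr20, had 13729.8 and 13096.6. The amidating enzyme pam had 22958 and 29807, and chromogranin A, chga, had 6771 and 6313, or 146 and 112 TPM. Chromogranin B, chgb, had 192.9 and 144.7, or 2.61 and 1.61 TPM. The granule zinc transporter slc30a8, a standard β-cell gene in mammals, had 1.8 and 2.9, at or below 3 reads in each library. For slc30a8, then, no RNA above that floor was detectable at this depth.

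Exocytosis genes were led, by mean and per length, by rims2a, an active zone scaffold, with 35286 normalised counts in replicate 1 and 39293 in replicate 2. The SNARE genes snap25a and vamp2 had 10226 and 9208 and 5199 and 5125, the vesicle calcium sensor gene syt1a had 5300.3 and 5962, and the SNARE partner stxbp1a had 4816 and 5045. Of the 121 exocytosis genes with a mean of at least 10, 6 were more than 2-fold higher in replicate 1 and 3 in replicate 2. That was 7.44% past 2-fold, against 16.2% over all genes with such a mean. On this list 92 genes had a mean of at least 100 and 34 at least 1000. Over all genes the share was 11.3% at means of 100 to 300 and 3.0% at 1000 to 3000.

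ER genes that fold and translocate secretory proteins took 1.33% of reads in replicate 1 and 1.13% in replicate 2. The oligosaccharyltransferase subunit rpn2 had 314 TPM in replicate 1 and 179 TPM in replicate 2. The prolyl isomerase ppib had 624 and 452 TPM, and the disulfide isomerase pdia3 had 342 and 283 TPM, so that rpn2 was below both in each library. The ER chaperone hspa5 (BiP) had 12452 in replicate 1 and 8817 in replicate 2, and hsp90b1 had 15444 and 7358, a 2.10-fold difference. In all, 108 of the 114 ER genes with a mean of at least 10 were within 2-fold. The share past 2-fold was 5.26%, against 16.2% over all genes and 3.0% over genes with means of 1000 to 3000. On this list 75 genes had a mean of at least 1000, where closeness was usual among all genes.

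Most of the islet transcription factors that passed the minimum were within 2-fold between the libraries. Of 64 symbols, 50 were matched and 36 had a mean of at least 10. Of these, 34 were within 2-fold, none was more than 2-fold higher in replicate 1, and 2 were in replicate 2: foxo3a (11.0 and 44.4 normalised counts) and ascl1a (26.6 and 70.4). The 2 made up 5.56% of the 36, against 16.2% over all genes. That share fell with abundance, to 11.3% at means of 100 to 300 and 3.0% at 1000 to 3000. On this list 30 genes had a mean of at least 100 and 16 at least 1000, so the closeness is not particular to it. The median log2 ratio of replicate 1 over replicate 2 was -0.05.

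Below pdx1 on the length-scaled level came neurod1, which is needed for endocrine differentiation, at 250 TPM in replicate 1 and 303 TPM in replicate 2. The paired-box gene pax6b followed at 179 and 153 TPM, and its paralog pax6a had 0.9 and 4.8 normalised counts. The LIM-homeobox gene isl1, expressed in all islet endocrine cells, stood at 143 and 95.1 TPM, and foxo1a, which insulin signalling keeps out of the nucleus, at 114 and 100 TPM. Of these neighbours, isl1 and foxo1a changed places between the libraries, so their order is not set by the data.

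Lower stood mnx1 (91.0 and 98.0 TPM), nkx6.2 (60.6 and 89.5 TPM) and nkx2.2a (76.4 and 74.9 TPM), homeobox factors of β-cell development. The exception was replicate 2, where mnx1 was above isl1 (95.1 TPM), so the order of mnx1 and isl1 is not set by the data. The order of nkx6.2 and nkx2.2a also differed between the libraries. The gene nkx6.1, whose mammalian ortholog is a β-cell identity factor, was lower at 7.12 and 7.07 TPM. Of the large Maf factors, the gene named mafb had 33.7 TPM in each library, whereas mafaa, the homolog of mammalian MAFA, had 1.8 and 8.7 normalised counts, below the detection minimum of 10 in each.

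**Figure D3:**
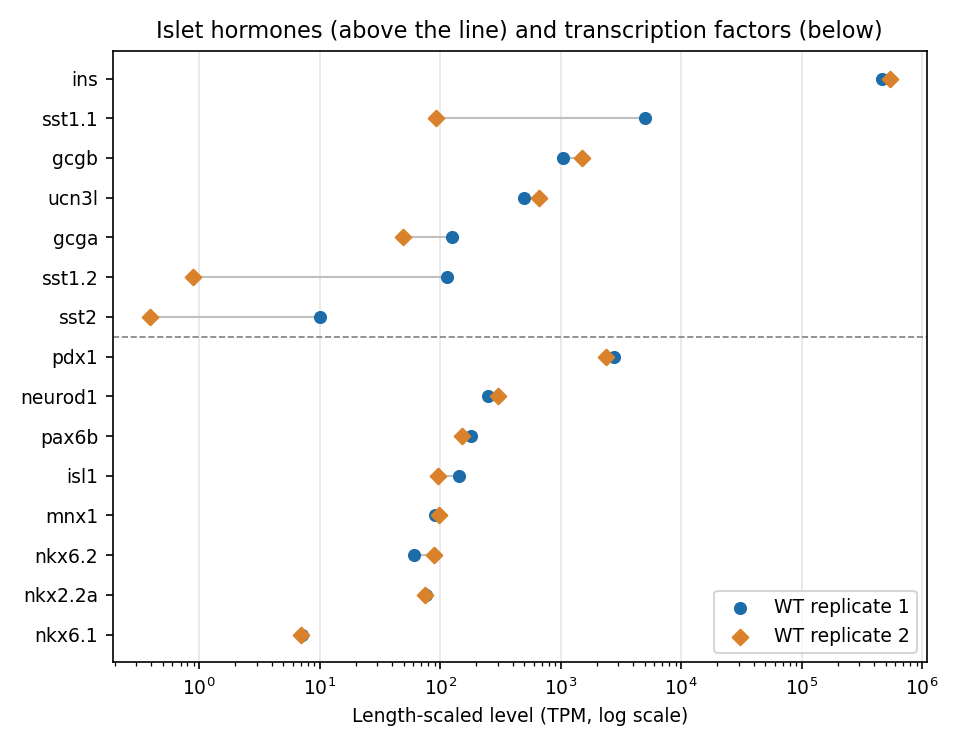
Length-scaled level (TPM, log axis) of islet hormones above the dashed line and transcription factors below it; circles are WT replicate 1, diamonds WT replicate 2. The gene pdx1 lies at 2755 and 2392 TPM, above the other factors, and the somatostatin genes are the hormones with the widest gap.

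Glucose-handling genes took 1.34% of reads in replicate 1 and 1.22% in replicate 2, and 53 of the 59 with a mean of at least 10 were within 2-fold. Past 2-fold were 10.2% of the 59, against 16.2% over all genes and 3.0% over genes with means of 1000 to 3000. On this list 30 genes had a mean of at least 1000. Glucokinase, gck, the glucose sensor of β-cells, had 19231 normalised counts in replicate 1 and 15224 in replicate 2. The glucose transporter slc2a2 (GLUT2) had 14319.5 and 12235, and slc2a1a (GLUT1) had 27.6 and 4.8. Per length the order was the same in both libraries, with gck at 277 and 180.2 TPM, slc2a2 at 167 and 117 TPM, and slc2a1a at 0.58 and 0.08 TPM.

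The most abundant glycolytic gene, by mean and per length, was gapdhs, with 106232 normalised counts in replicate 1 and 85653 in replicate 2. The other glyceraldehyde-3-phosphate dehydrogenase gene, gapdh, had 361.9 and 12.5. The glucose-6-phosphatase gene g6pcb, whose enzyme runs opposite to glucokinase, had 12708 and 39926, which was 3.14-fold higher in replicate 2. It was the only gene of the list past 2-fold in that direction. Pyruvate carboxylase, pcxb, had 20166 and 21626.

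Nuclear-encoded genes of the respiratory chain and ATP synthase were even: 121 of those with a mean of at least 10 were within 2-fold, 1 was more than 2-fold higher in replicate 1 and 1 in replicate 2. The share past 2-fold was 1.63%, against 16.2% over all genes and 3.0% over genes with means of 1000 to 3000. On this list 87 genes had a mean of at least 1000. The gene ndufa4l2a, a relative of a respiratory chain subunit, had 56171 normalised counts in replicate 1 and 51447.5 in replicate 2. The ATP synthase β-subunit atp5b had 30032 and 28679.

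Of the mitochondrial genome's own RNAs, the 13 protein-coding genes took 1.78% of reads in replicate 1 and 2.16% in replicate 2. Each of the 13 was higher in replicate 2, by 1.02-fold to 2.28-fold. The 2 rRNA genes took 1.74% and 4.06%, and each was higher in replicate 2, by 2.28-fold to 2.49-fold.

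Channel genes couple metabolism to secretion. The K-ATP subunits abcc8 (the sulfonylurea receptor) and kcnj11 (the pore) had 8451 and 12782 normalised counts and 1718 and 2096. Their length-scaled levels lay close together, abcc8 at 55.0 and 68.5 TPM and kcnj11 at 56.2 and 56.5 TPM. The calcium pump atp2a3, which refills the ER store, had 11567 and 12285. Of 62 channel and pump genes with a mean of at least 10, 49 were within 2-fold, 7 were more than 2-fold higher in replicate 1 and 6 in replicate 2. That was 21% past 2-fold, near the 16.2% over all genes with such a mean.

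On the list of receptors and G protein signalling, the prolactin receptor prlra had 17543 normalised counts in replicate 1 and 17285 in replicate 2 (105 and 84.8 TPM), and the β-subunit gnb1b had 16806 and 16415 (159 and 128 TPM). The inhibitory α-subunit gnai1 had 11394 and 8864 (176 and 113 TPM), and the regulator rgs16 had 11469.5 and 7128 (330 and 168 TPM). Per length rgs16 was thus above prlra in each library. The glucagon receptor gcgra had 3481 and 2698 (25.3 and 16.2 TPM). In that list 56 of 63 genes with a mean of at least 10 were within 2-fold, and gnai2b, at 2506 and 7155, was among the 4 that were more than 2-fold higher in replicate 2. The list had 11.1% past 2-fold, against 16.2% over all genes and 3.0% over genes with means of 1000 to 3000. On it 28 genes had a mean of at least 1000.

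Antigen presentation and interferon-response genes were detected in these WT cells. The gene b2m, the light chain of MHC class I, had 17211 normalised counts in replicate 1 and 31105 in replicate 2, and b2ml had 25573 and 34328. The transcription factor stat1a had 8525 and 11013. These 3 genes were within 2-fold between the libraries. The inducible immunoproteasome genes psmb8a, psmb9a and psmb10 were more than 2-fold higher in replicate 2, psmb8a having 122.2 and 368.5 normalised counts. Of 51 NF-κB, cytokine and interferon genes with a mean of at least 10, 39 were within 2-fold, 3 were more than 2-fold higher in replicate 1 and 9 in replicate 2. That was 23.5% past 2-fold, against 16.2% over all genes.

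The list of cell cycle genes held few reads. The replication clamp pcna had 1871 normalised counts in replicate 1 and 1936 in replicate 2, and the proliferation marker mki67 had 360.0 and 558.6. Per length that was 48.5 and 41.3 TPM for pcna and 1.65 and 2.11 TPM for mki67. The 40 genes matched on the list took 0.032% and 0.033% of reads, and 33 of 38 with a mean of at least 10 were within 2-fold. The share past 2-fold was 13.2%, near the 16.2% over all genes.

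RNA of other islet hormones was present. In bulk samples, fewer cells of a type and less RNA per cell cannot be told apart. The glucagon genes gcgb and gcga had 16455 and 29079 normalised counts and 7690.1 and 3665, so gcgb was 1.77-fold higher in replicate 2 and gcga was 2.10-fold higher in replicate 1. The α-cell factor arxa was at 0 in replicate 1 and 2.9 in replicate 2, at or under 3 reads in each. Per length, ins was 396-fold and 343-fold above both glucagon genes together. On that scale gcgb stood at 1043 and 1516 TPM, above the β-cell marker ucn3l (499 and 656 TPM) in each library. The gene gcga, at 125 and 48.8 TPM, was below ucn3l in each.

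The somatostatin gene sst1.1 had 92133 normalised counts in replicate 1 and 2059 in replicate 2, a 44.8-fold difference, and was the 10th gene per length in replicate 1 and the 624th in replicate 2. The gene sst1.2 had 2917 and 28, a 104-fold difference, and sst2 had 144.2 and 6.8. Of the other δ-cell markers, rbp4 with 154.3 and 1.0 and the gene matched to hhex, CABZ01079847.1, with 21.1 and 2.9 went the same way. The marker ghsra, with 1.8 and 5.8, did not. Which cells supplied the reads of these markers was not tested. Of the 6 δ-cell markers with a mean of at least 10, 5 were more than 2-fold higher in replicate 1, and the leptin receptor lepr, with 1833 and 1616, was within 2-fold. Over all genes 8.12% were that much higher in replicate 1. Only 3 of the 6 had at least 10 normalised counts in both libraries: sst1.1, sst1.2 and lepr. The markers sst2, rbp4 and CABZ01079847.1 passed the minimum through replicate 1 alone, which in part sets their direction. The 8 matched δ-cell markers together took 0.302% and 0.011% of reads.

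Most digestive enzyme genes went in the opposite direction. Of 28 acinar markers with a mean of at least 10, 23 were more than 2-fold higher in replicate 2 and none in replicate 1. Over all genes 8.11% were that much higher in replicate 2 and 8.12% in replicate 1. Of the 28 markers, 22 had at least 10 normalised counts in both libraries, and the rest passed the minimum through 1 library. The 32 matched markers together took 0.048% of reads in replicate 1 and 0.052% in replicate 2, most of it from the amylase-related zgc:66313 (13790.5 and 9060.0 normalised counts, current symbol amy2al1). The trypsin gene try had 151.5 normalised counts in replicate 1 and 1177 in replicate 2, and prss59.1 had 94.6 and 1012. Carboxypeptidase cpa5 had 33.1 and 613.6, and chymotrypsin ctrb1 had 36.7 and 537.4. As near-identical trypsin and elastase genes can share reads, single values within those families are uncertain.

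Over 12 digestive enzyme genes, chosen after their values were seen, the sum was 743 normalised counts in replicate 1 and 7194 in replicate 2. That sum was 0.0023% and 0.0209% of reads. The sum over the whole acinar list was 15411 normalised counts in replicate 1 and 17999.5 in replicate 2, a 1.17-fold difference. The amylase gene amy2a had 552 and 534.5.

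Most markers of the hepatocyte and enterocyte list that passed the minimum were higher in replicate 1. Of 20 hepatocyte and enterocyte markers with a mean of at least 10, 16 were more than 2-fold higher in replicate 1 and 1, fabp1b.1, in replicate 2. All genes gave 8.12% and 8.11% in these directions. Only 6 of the 20 markers had at least 10 normalised counts in both libraries, against 16529 of 17789 over all genes. The other markers passed the minimum through 1 library, which in part sets their direction. The apolipoprotein apoa2 had 3665 normalised counts in replicate 1 and 73.3 in replicate 2. Transferrin, tfa, had 1769.8 in replicate 1 and 0 in replicate 2, at least 611-fold higher if replicate 2 is set to its floor of 3 reads, and apoa1b had 1274 and 0, at least 440.1-fold higher. The liver fatty acid binding protein fabp10a had 710.9 and 2.9. The 25 matched markers took 0.031% and 0.002% of reads.

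Of the 21 macrophage and leukocyte markers with a mean of at least 10, 8 were more than 2-fold higher in replicate 2, 2 were more than 2-fold higher in replicate 1 and 11 were within 2-fold. That was 47.6% past 2-fold, against 16.2% over all genes. Of the 21 markers, 17 had at least 10 normalised counts in both libraries, and the rest passed the minimum through 1 library. The MHC class II chaperone genes cd74a and cd74b had 2264 and 10770.5 normalised counts and 1401.5 and 5737. They were 4.76-fold and 4.09-fold higher in replicate 2, while the pan-leukocyte gene ptprc had 6.4 and 6.8, and the macrophage gene mpeg1.1 had 0 and 1.0. The 33 matched markers of the list took 0.021% and 0.057% of reads, most of it from cd74a and cd74b in both libraries. Of 9 matched lymphocyte symbols only cd3eap (309.5 and 334.8), which encodes an RNA polymerase subunit, was above 100 normalised counts. Of the 14 matched endothelial markers 10 had a mean of at least 10, and those 10 were within 2-fold. The list took 0.003% of reads in each library.

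Some genes on lists of other cell types were high in both libraries. On the duct and epithelial list vil1, an actin-bundling protein of microvilli, had 13428 normalised counts in replicate 1 and 7200.0 in replicate 2, and krt8 had 10131 and 5125. The defining markers of that list were low, sox9a being at 0 in both libraries and sox9b at 0.9 and 9.6. Of its 26 matched markers, 16 had a mean of at least 10. On the neuron and glia list, snap25a had 137 and 101 TPM, plp1b 74.2 and 56.9 TPM and elavl4 22.8 and 20.2 TPM, while elavl3 had 65.2 and 117.7 normalised counts and gfap 25.7 and 8.7. How far other cells supplied any of these reads was not tested.

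The class with the largest ratio between the libraries was that of chaperones and heat shock. The 4 genes hsp70.1, hsp70.2, hsp70.3 and hsp70l took 3.2% of reads in replicate 1 and 0.14% in replicate 2, and each was 16.8-fold to 34.1-fold higher in replicate 1. The gene hsp70.1 (chr3:25981914-25984688) had 536116 normalised counts in replicate 1 and 27685 in replicate 2, and hsp70l had 204688 and 5994. Since these 4 are close copies, the split of reads among them is uncertain. Their sum was 20.9-fold higher in replicate 1.

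Some other chaperone and cochaperone genes went with them. The gene dnajb1b, which stimulates HSP70, had 30550.3 normalised counts in replicate 1 and 1831 in replicate 2, hsph1 had 3193 and 647.4, and the inducible hsp90aa1.2 had 25887 and 5729. The constitutive chaperones were closer, hspa8 with 52381 and 38071 and hsp90ab1 with 47294 and 46964. In the whole list 16 of 52 genes with a mean of at least 10 were more than 2-fold higher in replicate 1, 2 were in replicate 2 and 34 were within 2-fold. That was 34.6% past 2-fold, against 16.2% over all genes.

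Of the polyubiquitin genes, ubb and si:ch211-202a12.4 (current symbol UBB) were also higher in replicate 1. The gene ubb had 37760.0 and 7358, and si:ch211-202a12.4 had 47337 and 15820, while ubc had 21945 and 22883. Since the annotated spans of ubb and si:ch211-202a12.4 overlap, they can share reads and the split between them is uncertain. Their values are therefore not independent of each other.

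Immediate early genes, whose transcripts appear within minutes of a stimulus, numbered 31 with a mean of at least 10. Of these, 11 were more than 2-fold higher in replicate 1, 3 were more than 2-fold higher in replicate 2 and 17 were within 2-fold, where all genes gave 8.12% and 8.11% in these directions. The median log2 ratio of replicate 1 over replicate 2 was 0.86 in the list. The gene fosab had 28671 normalised counts in replicate 1 and 10184 in replicate 2. An antisense gene at the same locus, also named fosab, had 1903.9 and 972.5. No source consulted gives the strand setting of the counting, and reads of the pair cannot be told apart. The phosphatase dusp1 had 13655 and 2373, jun had 2205 and 347.3, and egr1 had 414.2 and 70.4. Other members of the list were level, such as btg1 with 38721 and 40638. What set the libraries apart in heat shock and immediate early genes was not tested.

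Across the 17789 genes with a mean of at least 10, the libraries correlated with Pearson r = 0.935 on log2(value + 1), a description across genes, which are not independent replicates. In total 2888 genes differed by more than 2-fold, 1445 being higher in replicate 1 and 1443 in replicate 2. The share of such genes was 41.8% at means of 10 to 30, 11.3% at 100 to 300 and 3.0% at 1000 to 3000, and was 5.9% at 10000 or more (20 of 340 genes, 17 of them higher in replicate 1).

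The spread exceeded counting error in each abundance range. At means of 10 to 30 the median size of the log2 ratio was 0.83, where counting error alone would give 0.35. At 1000 to 3000 it was 0.24 against 0.03, and above 10000 it was 0.23 against 0.01.

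**Figure D4:**
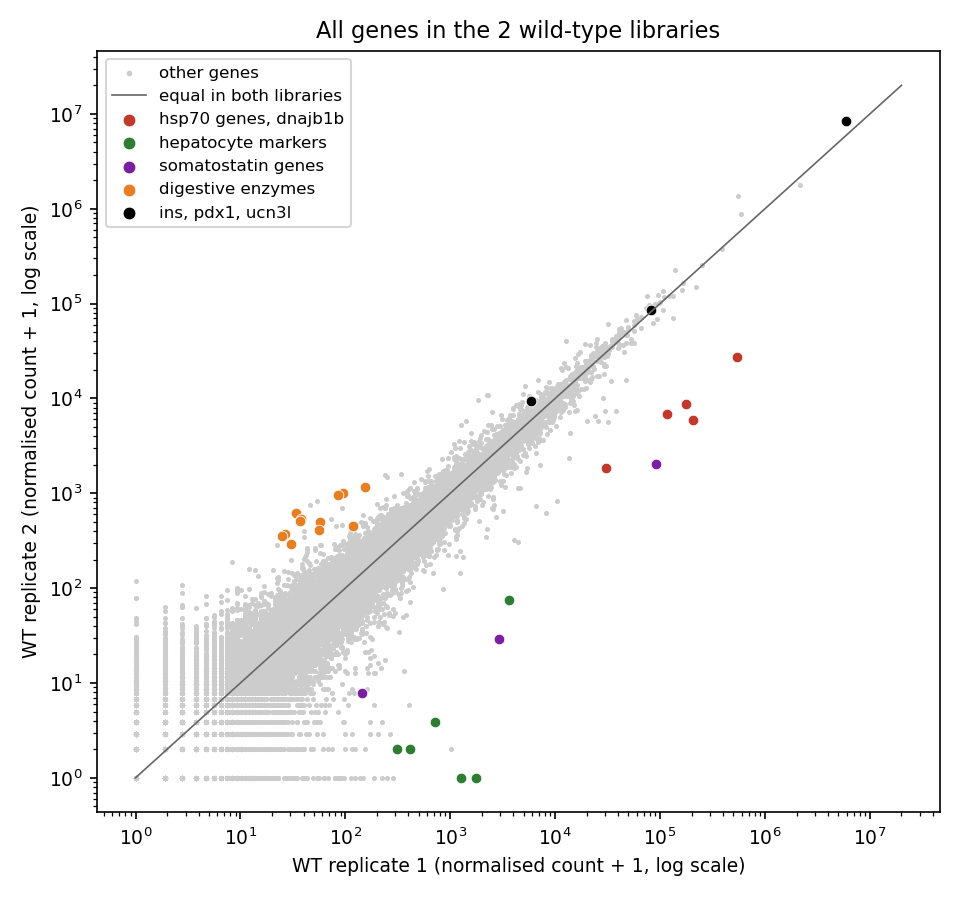
Normalised count + 1 of each listed gene in WT replicate 1 (x, log axis) against WT replicate 2 (y, log axis), with the line of equal values and 5 sets of genes in colour. The heat shock, somatostatin and hepatocyte genes drawn lie below the line (higher in replicate 1), while ins, pdx1 and ucn3l lie near it. The 12 digestive enzymes drawn, chosen after their values were seen and without the amylases, lie above it. The heat shock and hepatocyte genes drawn are only part of their lists. Of 52 chaperone genes with a mean of at least 10, 34 were within 2-fold and 2 more than 2-fold higher in replicate 2. Of 20 such hepatocyte and enterocyte markers, 3 were within 2-fold and 1 more than 2-fold higher in replicate 2.

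**Figure D5:**
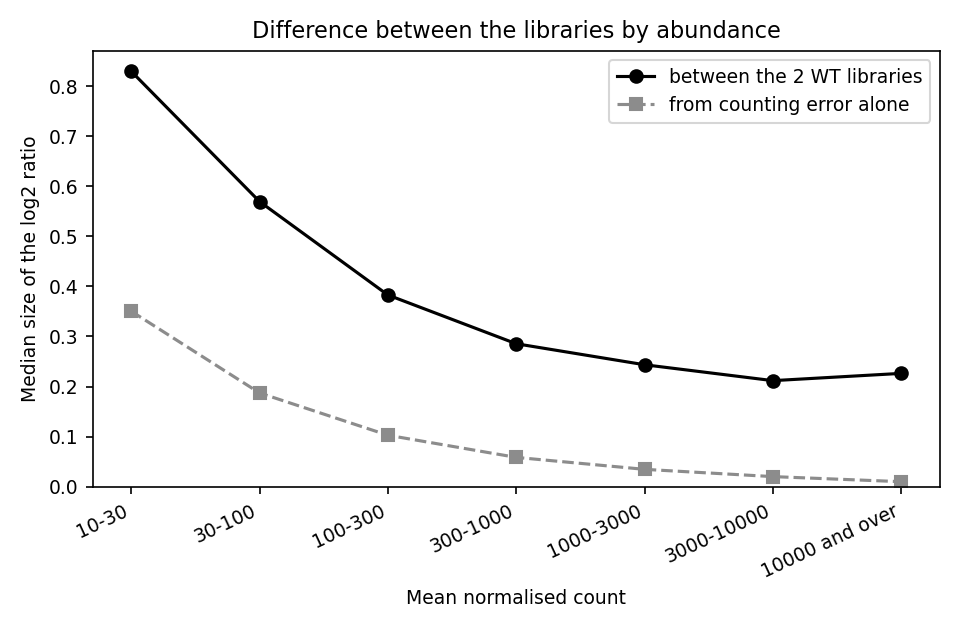
Median size of the log2 ratio between the 2 WT libraries (circles) and the median that counting error alone would give (squares), by mean normalised count. The measured median is 0.83 at 10 to 30 and 0.23 at 10000 and over, above the counting value of 0.35 and 0.01.

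Of the 12 largest in each direction among genes with a mean of at least 100, those higher in replicate 1 included tfa, apoa1b, fetub (1005.7 and 1.0 normalised counts), ahsg2 (281.0 and 0), hpda (249.8 and 0), serpina1 (410.5 and 1.0) and sst1.2. Those higher in replicate 2 included cpa5, cpa1, ctrb1, ela2, cpb1, prss59.1 and prss59.2. Outside the digestive enzymes, FO834888.1 (current symbol casp21, a caspase gene) had 45.0 normalised counts in replicate 1 and 751.5 in replicate 2.

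By annotated biotype, the 20277 protein-coding genes took 90.9% of reads in replicate 1 and 89.9% in replicate 2. The 450 lincRNA genes took 6.78% and 5.34%, of which malat1 held 6.63% and 5.18%. Nuclear rRNA genes took 0.08% and 0.12%. The highest entry annotated as miRNA, BX537263.2, had 3721 normalised counts in replicate 1 and 3686 in replicate 2. The highest annotated as misc_RNA, rn7sk, had 1728.5 and 2799, and the highest annotated as snRNA, U2, had 237 and 700.4. The snoRNA gene SNORD65 had 1229.8 and 143.7. These are reads on the annotated locus and not levels of mature small RNAs.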

How the data were processed

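RNA from sorted β-cells was sequenced in 2 WT libraries. The authors aligned reads with GSNAP to zebrafish GRCz10 and counted them on Ensembl annotation version 87. The deposited values, a signal made by scaling read counts by a factor per library and rounding to 1 decimal, came out as whole reads in 100% of values above 0 (tolerance 0.1 reads) once the value of 1 read was found, and shares of reads use those reads. Length is the exonic length in the deposited table. 2 columns of per-sample values, those of the other genotype, were not read. No test was run. Analyses used Python 3.11.15, pandas 2.3.3, numpy 2.4.6 and scipy 1.17.1, and were tested on simulated data. Folds use log2(value + 1) for calls. Genes were named by rank (25 by mean, 25 per length), by list (up to 8 highest members and the defining markers), by ratio (12 each way) and by biotype. Others, such as slc30a8, mafaa, pax6a, chga, chgb, slc2a1a, slc2a2, gapdh, gcgra, mki67, egr1, hsph1, elavl3, gnai2b and the immunoproteasome genes, were named after their values were seen. Members and lists were chosen with earlier results of these data known. Of 867 symbols on symbol lists 653 were matched, some through current names, and a symbol not matched was not analysed here.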

Additional observations from a re-analysis of the deposited data

How the results depend on the processing

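With 2 libraries of a single group, all spreads rest on a single difference. Dividing by length moved the share of ins to 50.0% (mean of both libraries 21.5% of reads), the genes that hold 50% of the total to 2 (main value 78), the share of cytosolic ribosomal proteins to 10.3% (8.57%) and that of granule cargo to 1.37% (2.92%). Leaving ins out of the total moved these to 241 genes, 11.0% and 3.72%. A minimum of 100 normalised counts left 10840 genes detected in both libraries, against 16529. Genes past 2-fold numbered 4870 at a mean of at least 1 and 749 at a mean of at least 100, against 2888. The correlation across genes, 0.935, was 0.959 with a pseudocount of 10, 0.943 over every listed gene, 0.940 at a mean of at least 100, and 0.957 as Spearman's rho. In a single library, the ins share ranged from 18.5% to 24.5%, the genes holding 50% of reads from 58 to 96, and the chaperone share from 0.61% to 3.97%. The other alternatives stayed within the spread between the libraries or within 1.5-fold. No paired analysis was possible because genotypes were not compared.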
